A study of Homo sapiens with 4 samples.

Results

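The origin licensing genes are the 9 genes that encode the 6 subunits of the origin recognition complex (ORC1 to ORC6), the loading factors CDC6 and CDT1, and geminin (GMNN), the inhibitor of CDT1. They were taken by symbol, by a rule that uses no measured value but was set with earlier results of these data known, and all 9 were found by Ensembl identifier among the 63677 genes counted. RNA-seq was available for HCT116 cells, a human colorectal cancer line, transfected for 48 h per the labels with an antisense oligonucleotide (ASO) against GAA repeats or with a control ASO. Each condition held 2 libraries, replicates 1 and 2, whose titles carry the numbers 232 and 234, and both conditions were transfected, with no untreated library analysed here. The anti-GAA ASO is a gapmer, with modified ends around a stretch of DNA that directs RNase H to the bound RNA, and the control ASO is a non-targeting one. All values come from 1 cell line. The study's methods speak of duplicate experiments, but nothing in the labels states whether the replicates were separate cultures. The p-values below measure the spread between these libraries, which may be technical.

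Licensing prepares origins for a single round of replication. In late mitosis and G1, ORC binds DNA, CDC6 joins it, and together with CDT1 they load the MCM2-7 helicase as a double ring. Once S phase begins, CDT1 is degraded and geminin binds what remains, so that no origin is loaded again. ORC1, CDC6, CDT1 and GMNN are known as genes of the proliferating cell whose transcription depends on E2F factors, while the other ORC subunits are generally held to vary less over the cycle. The study asks whether RNAs with GAA repeats that bind ORC1 support origin activation, and the licensing mRNAs bear on whether the ASO also altered the messages of the loading machinery.

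None of the licensing genes lies next to another in the genome. On GRCh38, ORC1 (ENSG00000085840) lies at chr1:52372829-52404423, ORC2 (ENSG00000115942) at chr2:200908977-200963680, ORC4 (ENSG00000115947) at chr2:147930396-148021604 and ORC5 (ENSG00000164815) at chr7:104126341-104208047, all on the minus strand. On the plus strand lie ORC3 (ENSG00000135336) at chr6:87590067-87667453, ORC6 (ENSG00000091651) at chr16:46689643-46698394, CDC6 (ENSG00000094804) at chr17:40287879-40304657, CDT1 (ENSG00000167513) at chr16:88803789-88809258 and GMNN (ENSG00000112312) at chr6:24774931-24786099.

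Libraries held 10538284 to 17894953 counts on genes, with TMM factors of 0.9406 to 1.067. The 6 epithelial markers (EPCAM, CDH1, KRT8, KRT18, KRT19 and CLDN4) summed to 2607 to 2954 CPM (counts scaled to library size and TMM factor). The 7 markers of other cell types summed to 15.5 to 26 CPM. Of these 7, CD3E, COL1A2 and PECAM1 were at 0 in all 4 libraries, and the fibroblast marker COL1A1 was at 10.1 to 14.6 CPM. The epithelial sum rests on KRT19, at 1114 to 1639 CPM and a log2 fold change of 0.26 (standard error 0.22). The other 5 were below 0, from EPCAM at −0.21 (standard error 0.18) to KRT18 at −0.54 (standard error 0.22, adjusted p = 0.996 in edgeR). The mesenchymal marker VIM was at 0.64 (standard error 0.48) and COL1A1 at −0.19 (standard error 0.27). VIM was higher in replicate 2 by 0.75 in log2 CPM with the control ASO and by 1.26 with the anti-GAA ASO. The part of these differences in the values of the licensing genes was not tested. Of the variance between libraries, 52.7% lay on a first principal component that split them by replicate number and 33.1% on a second that split them by ASO.

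The ASO pairs with GAA repeats, so the licensing transcripts were first searched for what they offer it. The longest perfect run of the repeat, in any frame and on the RNA strand of the canonical transcript, was 9 nt in ORC3 and GMNN, 8 nt in ORC1, ORC2, ORC4 and CDC6, 7 nt in ORC6 and 6 nt in ORC5 and CDT1. A run of at least 8 nt was held by 6 of the 9, against 42.7% of the 14751 tested genes with a transcript sequence. One of at least 9 nt was held by 2 of the 9, against 20.1% of these genes. None of the 9 held a run of 12 nt, which 2.61% of these genes do. The median longest run over these genes was 7 nt. The 2 longest runs and the shortest are shown with 6 nt on each side, 5′ to 3′ as DNA letters from GENCODE 44 on GRCh38, with the run in capitals.
GMNN, chr6:24785698-24785706, plus strand, exon 7 of 7, coding: gattctGAAGAAGAAactgtt
ORC3, chr6:87657944-87657952, plus strand, exon 16 of 20, coding: ggagttAAGAAGAAGtaagaa
CDT1, chr16:88804603-88804608, plus strand, exon 2 of 10, coding: cgggccAGAAGAtaaaga

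Allowing mismatches, the best ungapped match to 21 nt of the repeat, the length of the ASO, covered 15 of 21 bases in ORC2, ORC3, CDC6 and GMNN, 14 in ORC1 and ORC4, 13 in ORC5 and ORC6 and 12 in CDT1. A match of 15 or more is held by 38% of tested genes and one of 18 or more by 2.65%, and none of the 9 reached 16. The best windows of CDC6, GMNN and CDT1 show how far they are from a full target, with the bases that match the repeat in capitals.
CDC6, chr17:40301927-40301947, plus strand, exon 12 of 12, coding: GAAGAgaAAGAAatAGAAcAt
GMNN, chr6:24784504-24784524, plus strand, exon 6 of 7, coding: GAActgGcAGAAGtAGcAGAA
CDT1, chr16:88804595-88804615, plus strand, exon 2 of 10, coding: tccGggccAGAAGAtaAAGAA

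Over the gene bodies with their introns, ORC4 held a run of 12 nt, GMNN one of 11 nt and ORC2 one of 10 nt, each in an intron, and the other 6 genes had 6 to 9 nt. Of all tested genes, 11.2% hold at least 12 nt in the gene body. The ORC4 run is shown as the longest in any of the 9 genes. It is intronic by the GENCODE extent of the gene, which reaches chr2:148021604. The RefSeq window around the start of ORC4, used below, is chr2:148020688-148020987 on the minus strand. The run lies upstream of that window, so a transcript from the RefSeq start would not hold it.
ORC4, chr2:148021312-148021323, minus strand, intron: gttttcGAAGAAGAAGAAactcct

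The start sites were searched for the E2F consensus, as TTTCCCGC, TTTCGCGC, TTTGCCGC or TTTGGCGC on either strand, in RefSeq windows of 300 bases (250 before the start and 50 after, GRCh38.p14). ORC3, CDC6, CDT1 and GMNN each held 1 match and the other 5 genes none, against 3.31% of 35116 windows with at least 1. A match describes these letters in the window and not a bound site. Among the mRNAs of highest level (given next), CDT1, GMNN and CDC6 have a match and ORC6 has none. ORC3, which has a match, lies lower, and ORC1, held to depend on E2F, has none. A link between match and level was not tested. The matches are given with the motif in capitals and 10 bases on each side.
CDC6, motif at chr17:40287886-40287893, plus strand: gccattcggaTTTGGCGCgagcgcggct
CDT1, motif at chr16:88803754-88803761, plus strand, antisense match: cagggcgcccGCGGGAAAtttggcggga
GMNN, motif at chr6:24775333-24775340, plus strand: ctgggtcggtTTTGGCGCgctctcactt
ORC3, motif at chr6:87590123-87590130, plus strand, antisense match: gcgagggcgcGCGGGAAAtcccgagtgc

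In the control cells the 9 mRNAs differed several-fold in level once counts were divided by length. CDT1 and GMNN were the most abundant, ORC6 and CDC6 followed, ORC1, ORC3 and ORC5 lay lower, and ORC4 and ORC2 were lowest, when the length was that of all annotated exons of the gene. On this scale of CPM per kb, CDT1 was at 46.4 ± 8.73 (SD, n = 2) and GMNN at 40.2 ± 3.32, ORC6 at 24.6 ± 4.92 and CDC6 at 24 ± 1.12. ORC1 was at 12.8 ± 0.277, ORC3 at 12.1 ± 0.84 and ORC5 at 9.83 ± 3.41, and ORC4 at 5.31 ± 0.305 and ORC2 at 4.65 ± 1.04 CPM per kb. The median of all tested genes was 3.32 CPM per kb, so each licensing mRNA lay above it, from percentile 57.9 for ORC2 to percentile 92 for CDT1.

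Neighbours in that order could not always be told apart. In the 2 control libraries the ranges of CDT1 and GMNN overlapped, as did those of ORC6 and CDC6, of ORC1 and ORC3, of ORC3 and ORC5, and of ORC4 and ORC2. The steps from GMNN to ORC6, from CDC6 to ORC1 and from ORC5 to ORC4 were larger than the spread of the control libraries, and each held in all 4 libraries. Within each library ORC1 also lay above ORC3 and ORC3 above ORC5, in all 4 libraries, although their ranges overlapped between libraries.

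The annotated length moved this order. With the canonical transcript as the length, GMNN came first at 78.8 ± 6.5 CPM per kb (SD, n = 2), then ORC6 at 65.7 ± 13.1, CDT1 at 48.1 ± 9.04 and CDC6 at 27.9 ± 1.3. ORC6 shifts because its union of exons, 4309 nt, includes exons of other transcripts, while its canonical transcript is 1615 nt, and GMNN because its lengths are 2476 and 1263 nt. The levels of ORC3 and ORC5 became 19.9 ± 1.38 and 19 ± 6.61 CPM per kb and those of ORC4 and ORC2 7.24 ± 0.416 and 6.33 ± 1.42, while ORC1, with 3121 nt on both scales, stayed at 12.8. On both scales ORC2 and ORC4 were the lowest and CDT1, GMNN, CDC6 and ORC6 the 4 highest.

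**Figure D1:**
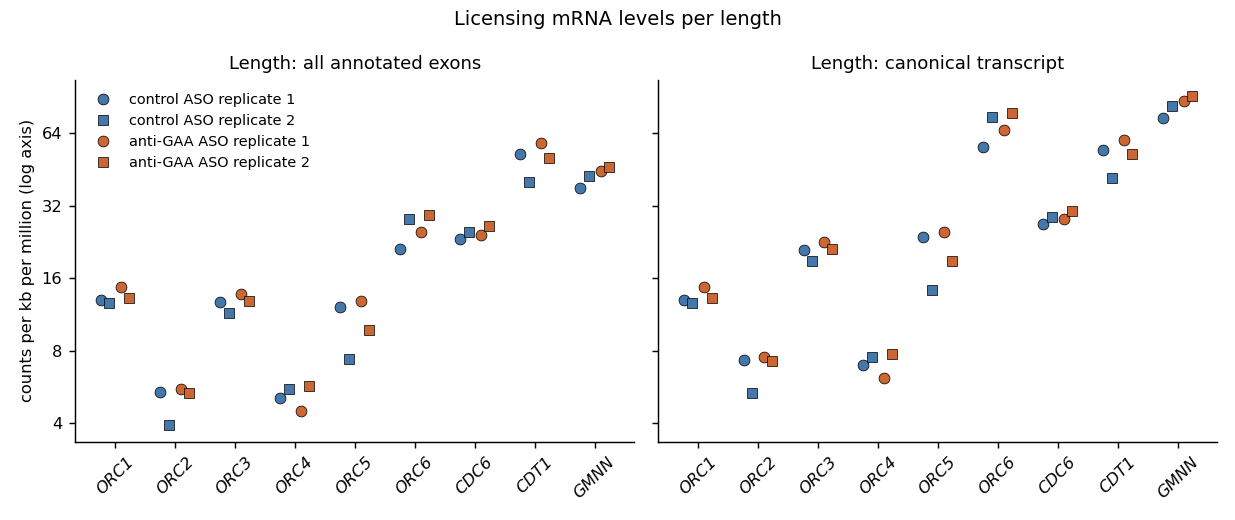
Level of each licensing mRNA (horizontal axis) in each of the 4 libraries, in CPM per kb on a log axis, with all annotated exons (left) or the canonical transcript (right) as the length; circles are replicate 1, squares replicate 2, blue the control ASO and orange the anti-GAA ASO. ORC2 and ORC4 sit lowest on both scales, at 3.91 to 5.70 on the left, and ORC6 and GMNN move up on the right.

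ORC1 to ORC5 form the ring that encircles DNA, and ORC6 binds it more loosely, so the subunit mRNAs were also set against each other within a library. Relative to the median of ORC2 to ORC5, with all exons as the length, ORC6 mRNA was at 2.4 and 4.34 in control replicates 1 and 2 and at 2.7 and 3.79 in anti-GAA replicates 1 and 2. ORC1 mRNA, the subunit that opens and closes the ring, was at 1.47 and 1.94 with the control ASO and at 1.6 and 1.73 with the anti-GAA ASO. ORC6 thus exceeded each of the other subunits in every library, while the ORC1 ratios of the 2 conditions overlapped. ORC2 was at 0.611 and 0.605 of that median with the control ASO and at 0.604 and 0.693 with the anti-GAA ASO. With the canonical length the control means were 5.43 ± 2.02 for ORC6, 1.04 ± 0.163 for ORC1 and 0.503 ± 0.0237 for ORC2 (SD, n = 2). So ORC1 lay above the median of the ring subunits by one length and close to it by the other.

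For the loading factors, the ratio of GMNN to CDT1 mRNA, the inhibitor over its target, was 0.719 and 1.06 in the control replicates and 0.766 and 0.922 in the anti-GAA replicates with all exons as the length. With the canonical length it was 1.36, 2, 1.45 and 1.74 in the same order, with GMNN above CDT1 in every library, so the order of these mRNAs depended on the length and, with all exons, on the library. On either length the anti-GAA ratios fell between those of the 2 control libraries. The ratio of CDC6 to ORC1, its close relative among the AAA+ ATPases, was 1.79 and 1.97 with the control ASO and 1.64 and 1.97 with the anti-GAA ASO, with overlapping ranges.

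With the anti-GAA ASO, no licensing mRNA was called as changed in any fit. Of the 9, 0 were called at an adjusted p under 0.05 by edgeR's quasi-likelihood test (0% of the 15116 genes tested were), and 0 had an unadjusted p under 0.05, which 3.46% of genes had in the lower and 1.02% in the higher direction. DESeq2 also called 0 of the 9 (0.0331% of all genes), with 0 at an unadjusted p under 0.05 (2.1% of genes lower and 0.662% higher). With a block for the replicate number, 0 of the 9 were called by edgeR, against 1.37% of genes lower and 0.337% higher, and 0 of the 9 had an unadjusted p under 0.05, against 9.7% lower and 6.86% higher. The log2 fold changes, anti-GAA over control, ran from −0.058 for ORC4 to 0.23 for ORC2 and CDT1, with standard errors of 0.19 to 0.30. Their median was 0.14, against 0.013 for all tested genes. The lowest bound of the 95% intervals without the block was 0.673-fold (ORC4) and the highest 1.87-fold (ORC5). Each interval holds for its own gene and gives the changes this fit left possible, not a limit of detection. For ORC5 it was −0.50 to 0.90 in log2, and −0.098 to 0.56 with the replicate block. An exact permutation test of 2 against 2 libraries cannot go below p = 0.333 and was not used.

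The signs of the small differences were alike. In edgeR's fit 8 of the 9 were above 0, where 51.6% of all tested genes were, with ORC4 as the exception, and 7 were when libraries were scaled to total counts, which put CDC6 at −0.020 and 39% of all genes above 0. Between libraries of the same replicate number 8 of the 9 were higher with the anti-GAA ASO in both pairs, where 31.8% of all genes were, and 0 were lower in both, where 30% were. The log2 CPM differences in the pairs of replicates 1 and 2 were 0.18 and 0.082 for ORC1 and 0.11 and 0.16 for ORC3. For ORC5 they were 0.071 and 0.39, and for ORC6 0.23 and 0.059. For CDC6 they were 0.06 and 0.087, and for GMNN 0.24 and 0.13. Those of ORC2, ORC4 and CDT1 are given below. Both anti-GAA libraries lay above both control libraries in 3 of the 9 (ORC1, ORC3 and GMNN), where 15.5% of genes did, and below both in 0, where 16.9% did. These genes share their libraries and in part their regulation and are not independent of each other, so the counts are a description of these 4 libraries.

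**Figure D2:**
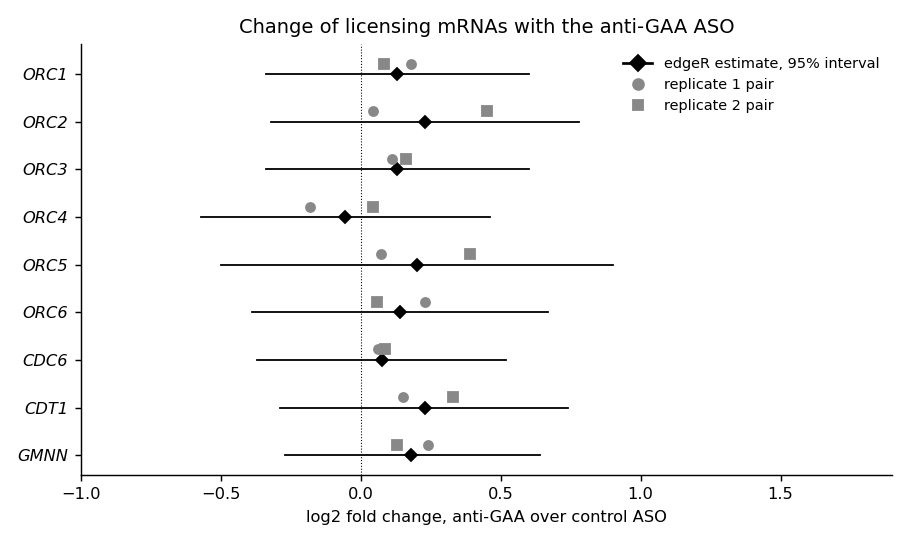
Log2 fold change of each licensing mRNA, anti-GAA over control ASO; diamonds and lines are edgeR's estimates with 95% intervals (2 libraries a condition), grey circles and squares the differences in log2 CPM between libraries of replicate 1 and of replicate 2. All 9 intervals include 0, and ORC4 alone has its estimate below 0, at −0.058.

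Among the ORC subunits, ORC1 is the one that is limiting in the cycle of human cells, made for G1 and removed in S phase. ORC1 was at 40.5 and 39.3 CPM in control replicates 1 and 2 and at 46 and 41.6 CPM in anti-GAA replicates 1 and 2. Its groups did not overlap, but the log2 fold change came to 0.13 (standard error 0.20, 95% interval −0.34 to 0.60, adjusted p = 0.996 in edgeR). ORC3, a core subunit of the ring, was at 52.1 and 47.2 CPM with the control ASO and at 56.4 and 52.7 CPM with the anti-GAA ASO. The nearest libraries of the groups were those at 52.1 and 52.7 CPM, and the fit gave a log2 fold change of 0.13 (95% interval −0.34 to 0.60).

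ORC2, which also has a place outside replication at centromeres, was at 31.4 and 22.8 CPM with the control ASO and at 32.4 and 31.2 CPM with the anti-GAA ASO. Control replicate 2 was the low library, and the other 3 lay within 31.2 to 32.4 CPM. The log2 fold change of ORC2 was 0.23 (standard error 0.23), with 0.045 between the replicate 1 libraries and 0.45 between the replicate 2 libraries, and it was 0.024 without control replicate 2 and 0.46 without control replicate 1. ORC5, an ATP-binding subunit, was at 45.6 and 27.6 CPM with the control ASO and at 47.9 and 36.2 CPM with the anti-GAA ASO, so that replicate 2 was lower in both conditions. Its log2 fold change of 0.20 had the largest standard error of the 9 without the block, 0.30. With the replicate block it was 0.23 (standard error 0.15), where standard errors over the 9 were 0.13 to 0.16. In fits without the block, it was −0.11 without control replicate 2, −0.013 without anti-GAA replicate 1 and 0.59 without control replicate 1.

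ORC4, another ATP-binding subunit, was at 45.5 and 49.3 CPM with the control ASO and at 40.1 and 50.8 CPM with the anti-GAA ASO. The control values lay inside the range of the anti-GAA values, and the pairs differed in sign, at −0.18 and 0.043. Its log2 fold change of −0.058 (standard error 0.22, adjusted p = 0.996 in edgeR) was 0.10 without anti-GAA replicate 1 and 0.026 with offsets for length and GC trends. ORC6, the smallest subunit, was at 91.1 and 121 CPM with the control ASO and at 107 and 126 CPM with the anti-GAA ASO, with overlapping groups. Its log2 fold change of 0.14 (standard error 0.22) was −0.070 without control replicate 1, 0.36 without control replicate 2 and 0.015 without anti-GAA replicate 2.

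**Figure D3:**
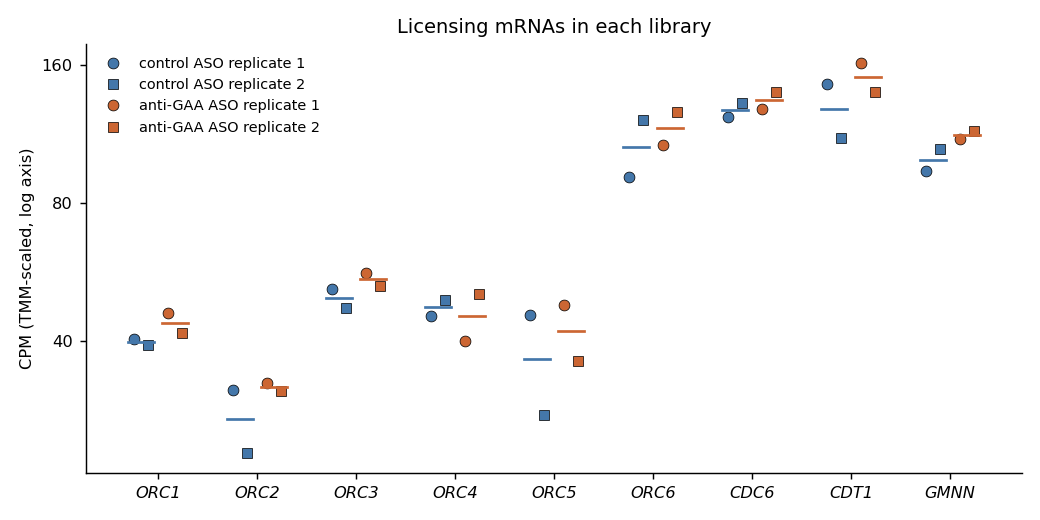
CPM of each licensing mRNA in each library on a log axis; circles are replicate 1, squares replicate 2, blue the control ASO and orange the anti-GAA ASO, and bars the means of the 2 libraries. The groups do not overlap for ORC1, ORC3 and GMNN, and the widest spread within a group on this axis is that of ORC5 with the control ASO, 27.6 to 45.6 CPM.

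CDC6, the ATPase that completes the loading complex with ORC, was at 123 and 132 CPM with the control ASO and at 128 and 139.7 CPM with the anti-GAA ASO. These groups overlapped, and the log2 fold change was 0.074 (standard error 0.19, 95% interval −0.37 to 0.52). CDT1, which brings MCM2-7 to ORC and CDC6, was at 145 and 111 CPM with the control ASO and at 161 and 139.6 CPM with the anti-GAA ASO. The fitted log2 fold change of CDT1 was 0.23 (standard error 0.22, 95% interval −0.29 to 0.74), with 0.15 and 0.33 in the pairs, and it was 0.055 without control replicate 2, 0.42 without control replicate 1 and 0.12 without anti-GAA replicate 1. Its unadjusted p of 0.33 was the smallest of the 9 in edgeR. GMNN was at 93.7 and 105 CPM with the control ASO and at 110.4 and 115 CPM with the anti-GAA ASO. The groups stood apart, with a log2 fold change of 0.18 (standard error 0.19, 95% interval −0.27 to 0.64).

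The replicates of a condition differed by as much as the conditions for several of these mRNAs. The difference between the 2 control libraries was larger than the log2 fold change of the ASO in 7 of the 9 genes (not in ORC1 and GMNN, and barely in ORC3), as in 61.9% of all tested genes, and that between the 2 anti-GAA libraries in 5 of the 9, as in 63.6% of all tested genes. These differences are between single libraries, while the fold change is between means of 2, which vary less. The sign of the difference, replicate 2 minus 1, was the same with both ASOs in all 9, where it was in 69.5% of all tested genes. Replicate 2 was lower for ORC5 (−0.72 in log2 CPM with the control ASO and −0.40 with the anti-GAA ASO), ORC2 (−0.46 and −0.056) and CDT1 (−0.39 and −0.20). It was higher for ORC6 (0.41 and 0.23), ORC4 (0.12 and 0.34), GMNN (0.17 and 0.065) and CDC6 (0.095 and 0.12). ORC1 and ORC3 differed by −0.14 at most in either condition. The median size of this difference over the 9 was 0.17 with the control ASO, against 0.32 over all tested genes. The comparison is not matched for level, since the 9 lay at a median percentile of 75.8 by mean CPM. What the numbers 232 and 234 stand for is not in the labels, and the part of the replicate in each ASO difference was not tested beyond the fit with the replicate as a block, given in the closing section.

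**Figure D4:**
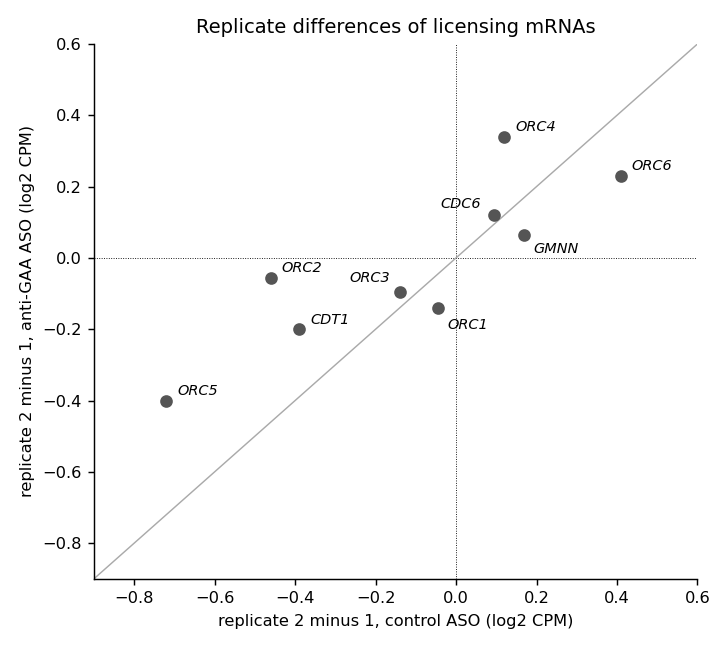
Difference between replicates 2 and 1 in log2 CPM for each licensing mRNA, with the control ASO on the horizontal and the anti-GAA ASO on the vertical axis; the grey line marks equal differences. All 9 points lie in the quadrants of equal sign, from ORC5 at the lower left to ORC6 and ORC4 at the upper right.

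The partners and regulators of licensing, 35 genes in 5 lists, were all tested, and 0 passed an adjusted p of 0.05 in edgeR or in the fit with the replicate block (1.71% of all genes did in the latter). Of the 35, 24 were above 0 and 11 below, with a median log2 fold change of 0.061, against 0.013 for all genes. The share above 0 was 68.6%, against 51.6% of all genes, and it rested on single libraries. It was 37.1% (13 of 35) without control replicate 2, against 52.3% of all genes, and 42.9% (15 of 35) without anti-GAA replicate 1, against 50.4%. Among the 7 genes of MCM loading, 6 were above 0 with a median of 0.13, from MCMBP, which binds free MCM proteins, at −0.17 (standard error 0.18) to MCM7, a helicase subunit, at 0.36 (standard error 0.30). MCM7 was at 716 and 498 CPM with the control ASO and at 972 and 586 CPM with the anti-GAA ASO, which overlap.

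Among 7 chromatin partners of ORC and CDT1, 4 were above 0 and 3 below. KAT7, the acetyltransferase HBO1 that works with CDT1 at origins, was at 16.9 and 18.5 CPM with the control ASO and at 26 and 25.1 CPM with the anti-GAA ASO. Its log2 fold change of 0.53 (standard error 0.21) had the only unadjusted p under 0.05 of the 35, 0.0419, with an adjusted p of 0.996 in edgeR. BRPF3, a scaffold of the same enzyme, was at −0.34 (standard error 0.27). Of 9 genes for the turnover of licensing factors, 6 were above 0. DTL, the receptor that directs CDT1 to the CUL4 ligase in S phase, was at 0.37 (standard error 0.23) and FBXO31, an F-box protein, at −0.40 (standard error 0.24).

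The genes of the E2F and RB list did not share a sign. Of the 6 E2F and RB genes 3 were above 0 and 3 below, from RB1 at −0.40 (standard error 0.37), where anti-GAA replicate 1 was low at 5.66 CPM against 10.6 to 12.2 CPM in the others, to E2F3 at 0.17 (standard error 0.26). E2F1 was at −0.30 (standard error 0.26). Of the 6 genes of S phase kinases, 5 were above 0, from CCNE1 (cyclin E1) at −0.064 (standard error 0.28) to CCNE2 (cyclin E2) at 0.22 (standard error 0.48), which rests on 19 to 29 counts a library. None of the 6 was higher in both pairs: 5 were lower in the pair of replicate 1 and 4 higher in that of replicate 2, with medians of −0.095 and 0.27.

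**Figure D5:**
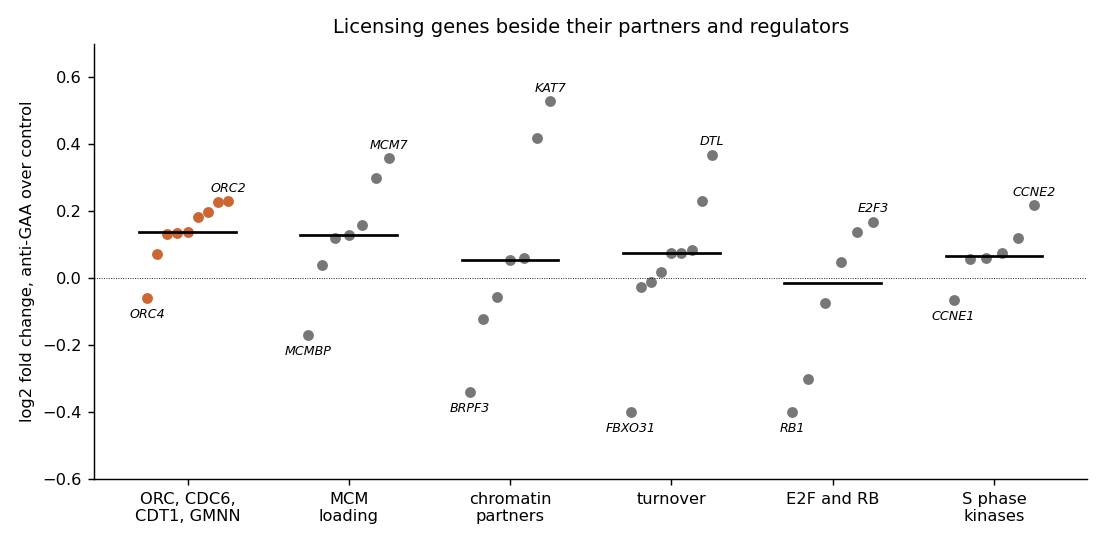
Log2 fold change, anti-GAA over control ASO, of the 9 licensing genes (orange) and of the 5 lists of partners and regulators (grey), 1 point a gene with the list's median as a bar and its extremes named. Medians run from −0.013 (E2F and RB) to 0.14 (licensing genes), and KAT7 is the highest point at 0.53.

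Several of the licensing mRNAs are known to vary over the cell cycle, so markers of its phases were read from the same fit. In bulk RNA, a smaller share of cells in a phase and less RNA per cell cannot be told apart. Of 40 tested markers of G1/S and S phase (CDC6 and GMNN left out), 26 were above 0 and 14 below, with a median log2 fold change of 0.067 and with −0.032 and 0.089 in the pairs of replicates 1 and 2. MCM2, MCM4, MCM5, MCM6, DTL and CCNE2, each above 0, were also counted among the 35 partners and regulators. The counts of these lists are therefore not separate observations. Of 53 tested G2/M markers, 25 were above 0 and 28 below, with a median of −0.034 and with −0.13 and 0.065 in the pairs. Without the block edgeR called 0 genes of either list, with 1 S phase and 3 G2/M markers lower at an unadjusted p under 0.05, which 3.46% of all genes were. In the fit with the block 2 of the 53 G2/M markers, ECT2, an exchange factor needed for cytokinesis, and HMMR, a spindle protein, were called lower, as 1.37% of all genes were. ECT2 was at 33.2 and 28.4 CPM with the control ASO and at 16.4 and 15.3 CPM with the anti-GAA ASO (adjusted p = 0.00975 with the block). HMMR was at 53.3 and 41.6 CPM and at 31.1 and 22.2 CPM (adjusted p = 0.0122 with the block in edgeR). Their groups did not overlap. The extremes of the lists were DTL (0.37) and BRIP1 (−0.75, standard error 0.27) for S phase, and CTCF (0.38) and KIF20B (−1.41, standard error 0.54) for G2/M. The part of cell cycle composition in the values of the licensing genes was not tested.

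Genes that share a start or exons with a licensing gene were read as well. ORC1 starts 179 nt from PRPF38A on the other strand, ORC3 39 nt from RARS2 and ORC6 125 nt from VPS35. PRPF38A was at 0.076 (standard error 0.21) and RARS2 at 0.078 (standard error 0.22) on the log2 scale. VPS35, a subunit of the retromer, was at 141 and 128 CPM with the control ASO and at 188 and 192 CPM with the anti-GAA ASO, a log2 fold change of 0.50 (standard error 0.19, adjusted p = 0.996 in edgeR) beside 0.14 for ORC6. Exons of ORC4 overlap those of ACVR2A over 431 nt and of MBD5 over 157 nt on the opposite strand, and whether counting used the strand is not given in the sources used here. ACVR2A was at 4.19 to 5.66 CPM and MBD5 at 2.12 to 6.31 CPM, against 40.1 to 50.8 CPM for ORC4, and MBD5 had a log2 fold change of −0.84 (standard error 0.42). The pseudogene ORC1P1 and a lncRNA (ENSG00000183308) whose exons overlap ORC2 over 256 nt had 0 counts in all libraries.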

How the data were processed

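Trimming by the authors was with Trimmomatic and alignment with STAR (hg19). After reads on GL contigs had been dropped, featureCounts gave a count for each Ensembl gene. The deposited values are raw counts without normalization, and 0 columns of per-sample values were left unused. The release of Ensembl, whether strand was used and how multi-gene reads were handled are not given in the sources used here. The labels name a total RNA kit and the study's methods a stranded mRNA kit and a shorter transfection.

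The 15116 genes that filterByExpr retained were scaled with TMM factors and tested with edgeR 4.0.16 (quasi-likelihood, the ASO as the only term) in R 4.3.3, with Benjamini-Hochberg adjustment over all tested genes. Intervals are 95% from the fitted standard error. Pair values subtract log2 CPM (prior count 2) of the control from the anti-GAA library of the same number. Licensing genes had 321 to 2485 counts a library, a counting error (SD) of 5.58% to 2.01%, which covers counting only. DESeq2 1.42.0 and mgcv 1.9.3 (trends on length and GC content) served the alternatives, and pandas 2.3.3 and scipy 1.17.1 the summaries. The fits were tested on simulated data. Symbols, lengths and sequences came from GENCODE 44 on GRCh38 by Ensembl identifier (52181 of 63677 genes matched), with no position carried over from hg19. The licensing genes and all lists were chosen with earlier results of these data known. Named beside the 9 were list members past an adjusted p of 0.05 with or without the block, the extremes of each list, and genes that overlap a licensing gene or start within 2 kb on the other strand. E2F1 was named after its values had been seen. No gene was named for likeness of pattern, since 4 libraries cannot rank it.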

Additional observations from a re-analysis of the deposited data

How the results depend on the processing

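Over 13 alternatives, no licensing gene passed an adjusted p of 0.05, and 109 of 117 log2 fold changes kept their sign. ORC4 turned to 0.026 with the length and GC offsets and to 0.021 with the replicate block and these offsets together, and CDC6 to −0.020 with total counts as scaling. Leaving out 1 library gave −0.24 to 0.10 for ORC4, −0.11 to 0.59 for ORC5 and −0.070 to 0.36 for ORC6, and, with no change of sign, 0.024 to 0.46 for ORC2 and 0.055 to 0.42 for CDT1, with the spread of the remaining pair taken to hold for the lone library. The cause was not tested.

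Libraries of the same replicate number deviated together (Pearson's r = 0.564 across genes, which are not independent replicates), but the labels do not say what the number marks, so the pairing is a hint from the data. With the replicate block in edgeR, all licensing genes kept their sign and the smallest unadjusted p was 0.105 (CDT1, 0.24, standard error 0.14, adjusted p = 0.42, and 0.391 to 1 over the other alternatives). With that block 207 genes were called lower and 51 higher, and 348 and 115 with the length and GC offsets in the same fit, against 0 and 0 without (523 and 154 at an unadjusted p under 0.05). DESeq2 called 5 lower and 0 higher, and 45 and 13 with the replicate block. Without a filter on low counts 111 were lower and 5 higher. Leaving out a library gave 0 lower and 0 higher in edgeR. The 24 of 35 partners and regulators above 0 became 13 to 27 when leaving out 1 library. With total counts as scaling they were 13, where all genes shifted too (39% above 0, median −0.081, against −0.025 for the list).

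By the longest and the canonical transcript as length, the control ratio to the median of ORC2 to ORC5 was 1.06 and 1.04 for ORC1, 0.515 and 0.503 for ORC2, 1.44 and 1.5 for ORC5 and 4.93 and 5.43 for ORC6, against 1.71, 0.608, 1.27 and 3.37 by all exons. These ratios thus moved with the length used. They also differed between the control libraries, at 2.4 and 4.34 for ORC6 by all exons, and depth was not varied. The longest GAA run was 9 nt in the longest and canonical transcripts, the best match 15 of 21 nt, and the longest run in the gene body, an alternative added after the data were seen, 12 nt.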
